A study of Mus musculus with 6 samples.

Results

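Aldo-keto reductases are soluble enzymes that use NADPH or NADH to reduce aldehydes and ketones, among them sugars, steroids, prostaglandins and the reactive aldehydes of lipid peroxidation, to the matching alcohols. The 7 genes described here are Akr1a1, Akr1b3, Akr1b7, Akr1b8, Akr1b10, Akr1c13 and Akr1c14, found by their Ensembl identifiers among the 55335 in the files. The family was chosen by the measured FPKM of Akr1b7, which was higher in cells given mitochondria, so the values of Akr1b7 and the count of members called are a description, and nothing is supported with them. Akr1b3 is the mouse aldose reductase, which turns glucose into sorbitol in the first step of the polyol pathway. Its close relatives Akr1b7, Akr1b8 and Akr1b10 reduce a broad range of aldehydes, and Akr1c enzymes act mainly on steroids and prostaglandins.

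RNA was sequenced in 6 libraries labelled bEnd.3, a mouse brain endothelial line immortalised with polyomavirus middle T antigen, with wild-type genotype in every label. In the 3 Mito-T libraries the cells had received astrocyte mitochondria, prepared from primary mouse cultures, in 100 µl of medium, and in the 3 Ctrl libraries they had received that volume of medium alone. Cells were collected after 24 h, and both groups grew in high-glucose medium with serum. The comparison asks what transferred astrocyte mitochondria do to gene expression in these cells. Separate cultures are not named for the replicates of a group, so the p-values reflect the spread among the libraries alone, and that spread may be technical.

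Values are FPKM, fragments scaled to transcript length and to library depth, so levels can be compared between genes. Depths estimated from the steps between low values were 21900000 to 27300000 fragments in Mito-T libraries and 17100000 to 21200000 in Ctrl libraries, a difference without overlap whose part in the results was not tested. Log2 changes are Mito-T minus Ctrl on the log2(FPKM + 1) scale, from limma over 12639 genes that reached 1 FPKM in 3 or more libraries, and a gene was called at a Benjamini-Hochberg adjusted p under 0.05. The labelled cell type was checked against its defining markers. Cdh5, Pecam1, Cldn5, Emcn and Vwf were under 0.3 FPKM in all 6 libraries, and Erg and Tek reached 0.452 and 0.579 FPKM at most. Only 5 of 12 endothelial markers were expressed enough to be tested. Over all 6 libraries Cd34 and Eng averaged 70.2 and 61.1 FPKM, and Flt1, Tie1 and Kdr 8.89, 5.61 and 3.47 FPKM. The fibroblast and mural markers Col3a1, Col1a1, Pdgfrb and Pdgfra averaged 225, 111, 55.8 and 20.5 FPKM. The endothelial identity of these cells thus rests on few markers, and the markers do not settle it. The astrocyte markers Aqp4 and Sox9 were listed at 0 in every library and Gfap reached 0.198 FPKM at most. Astrocyte markers summed to 42.4 to 48.5 FPKM in Mito-T libraries and 26.8 to 63.7 FPKM in Ctrl libraries, nearly all from Gja1 and Aldoc, which other cells also express. Gja1 stood at 24.1, 23.5 and 25.8 FPKM in Mito-T replicates 1 to 3, against 45.7, 11.7 and 46.0 FPKM in Ctrl replicates 1 to 3, and limma called it lower without Ctrl replicate 2 (adjusted p = 0.0319) but not with all libraries (0.871). The 12 endothelial markers summed to 157 to 169 FPKM in Mito-T libraries and 135 to 143 FPKM in Ctrl libraries, and the 12 fibroblast and mural markers to 382 to 420 FPKM in Mito-T libraries and 431 to 465 FPKM in Ctrl libraries. Limma called Cd34 higher in the endothelial list (adjusted p = 0.0265) and Col1a1 lower in the fibroblast list (adjusted p = 0.00547). The call of Cd34 held without Ctrl replicate 3 and was lost without any other single library, at adjusted p up to 0.150. It was also lost with no filter on low values (limma adjusted p = 0.0927) and with the replicate number as a block (0.0619), and held in 8 of 10 other settings. Other members of both lists lay on the opposite side without overlap and were not called. Kdr and Flt1 had log2 changes of −0.31 and −0.33, and Pdgfra, Acta2 and Des of 0.28, 0.27 and 0.35. The median log2 change was 0.09 over the 5 tested endothelial markers, of which 3 were positive. It was 0.17 over the 6 tested fibroblast and mural markers, of which 4 were positive. The lower fibroblast and mural sum thus follows Col1a1 and not that list as a whole. The endothelial sum has the sign of its median, but it too mostly follows 1 gene. That gene is Cd34, at 80.1 ± 1.84 FPKM in Mito-T libraries and 60.3 ± 2.49 FPKM in Ctrl libraries (SD, n = 3 each). The part of these marker shifts in the values below was not tested.

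Akr1b7, Akr1b8 and Akr1b10 lie side by side on the plus strand of chromosome 6, and their transcripts share long stretches. The following coding window surrounds the longest run that Akr1b7 and Akr1b8 have in common, coding bases 476 to 527, and it is shown because a read that falls wholly within that run of 52 bases is the same for both genes. Capitals mark the bases that are not the same in all 3 genes. The window covers coding bases 466 to 537, counted from 1 at the start codon, and lies on GRCm38 at chr6:34419030-34419101 in Akr1b7, chr6:34363368-34363439 in Akr1b8 and chr6:34392053-34392124 in Akr1b10.
Akr1b7: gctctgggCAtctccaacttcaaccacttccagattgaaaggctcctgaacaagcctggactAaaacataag
Akr1b8: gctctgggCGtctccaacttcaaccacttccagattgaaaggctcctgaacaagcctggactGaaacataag
Akr1b10: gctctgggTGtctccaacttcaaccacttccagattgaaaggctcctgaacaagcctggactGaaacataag
Only 3 of these 72 bases differ among the 3 genes, and a read that covers them can tell some of the genes apart. Over the whole coding sequence of 951 bases, Akr1b7 was 84.9% identical to Akr1b8, with 144 differences, and 89.3% identical to Akr1b10, with 102 differences. Akr1b3 was 73.1% identical to Akr1b7, and Akr1a1 was 62.0% identical to it.

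The sequences just before the 3 start sites were less alike than the coding parts. RefSeq promoter windows on GRCm38.p6 were given for 6 of the 7 genes, and for Akr1b3 none is printed. The RefSeq start sites lie 28, 27 and 29 bases downstream of the GENCODE gene starts given here for Akr1b7, Akr1b8 and Akr1b10, so each window ends inside the GENCODE gene. The 250 bases before the RefSeq start site are shown for the 3 neighbours, since their levels lay higher together in the Mito-T libraries. Capitals mark matches to CCAAT or TATAAA on either strand, which do not overlap each other.
Akr1b7, chr6:34412112-34412361, plus strand: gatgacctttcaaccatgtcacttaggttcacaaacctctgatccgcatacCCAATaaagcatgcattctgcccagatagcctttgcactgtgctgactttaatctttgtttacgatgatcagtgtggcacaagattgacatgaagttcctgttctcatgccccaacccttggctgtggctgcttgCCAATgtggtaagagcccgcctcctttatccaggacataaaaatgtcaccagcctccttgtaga
Akr1b8, chr6:34353896-34354145, plus strand: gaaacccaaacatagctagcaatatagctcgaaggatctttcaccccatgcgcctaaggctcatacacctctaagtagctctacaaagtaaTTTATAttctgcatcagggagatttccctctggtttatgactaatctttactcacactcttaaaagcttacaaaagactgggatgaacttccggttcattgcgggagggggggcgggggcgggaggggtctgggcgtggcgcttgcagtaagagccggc
Akr1b10, chr6:34383997-34384246, plus strand: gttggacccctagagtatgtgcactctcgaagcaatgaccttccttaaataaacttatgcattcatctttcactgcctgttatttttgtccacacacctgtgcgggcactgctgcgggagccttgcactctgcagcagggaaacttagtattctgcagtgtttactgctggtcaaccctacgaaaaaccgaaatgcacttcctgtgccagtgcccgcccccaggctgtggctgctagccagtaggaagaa
Akr1b7 and Akr1b10 shared a run of 13 bases, ggctgtggctgct, from 79 to 67 bases before the RefSeq start of Akr1b7 and from 28 to 16 bases before that of Akr1b10. The longest run that Akr1b7 shared with Akr1b8 was 9 bases. CCAAT stood in Akr1b7 at 2 places and in 33.8% of the 32851 promoter windows of this length, and TATAAA stood in Akr1b8 and in 12.4% of them. The motif of antioxidant response elements, TGACNNNGC, is found in 10.2% of all windows, and the AP-1 motif, TGANTCA, in 6.75%. Neither was present in these 3 windows on either strand, which says nothing about binding elsewhere.

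Akr1b7, named as the vas deferens protein of the mouse and known from the adrenal cortex, where it reduces the aldehyde released when cholesterol's side chain is cut, was the lowest of the 7 genes. Akr1b7 (ENSMUSG00000052131, chromosome 6, 34412334 to 34423142) stood at 3.67, 3.00 and 2.92 FPKM in Mito-T replicates 1 to 3, against 1.13, 0.408 and 0.654 FPKM in Ctrl replicates 1 to 3. All 3 Mito-T libraries lay above all 3 Ctrl libraries. The mean was 3.20 ± 0.410 FPKM in Mito-T libraries and 0.732 ± 0.369 FPKM in Ctrl libraries (SD, n = 3 each), a ratio of means of 4.37. On the log2 scale the difference was 1.29 (SE 0.16), the 8th largest upward among the 12639 genes. In these bulk samples, more cells with a transcript and more of it per cell cannot be told apart. Akr1b7 reached 1 FPKM in only 1 Ctrl library and passed the filter on low values through the group in which it was high. Its single transcript of 1281 bases makes these levels worth about 128, 84.2 and 90.1 fragments in the Mito-T libraries, against about 24.8, 9.67 and 17.7 in the Ctrl libraries. Of the 7 members, all of which were tested, Akr1b7 was the 1 called, and 1.12% of all tested genes were called, 0.467% higher and 0.649% lower. Before adjustment limma gave a p under 0.05 to 3 members, all higher in Mito-T libraries, and to 13.9% of all tested genes, with 6.58% of all tested genes higher. This call did not hold without Ctrl replicate 2, Ctrl replicate 3 or any of the 3 Mito-T replicates, where limma's adjusted p lay between 0.0540 and 0.116, and it held without Ctrl replicate 1, at 0.0206.

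**Figure D1:**
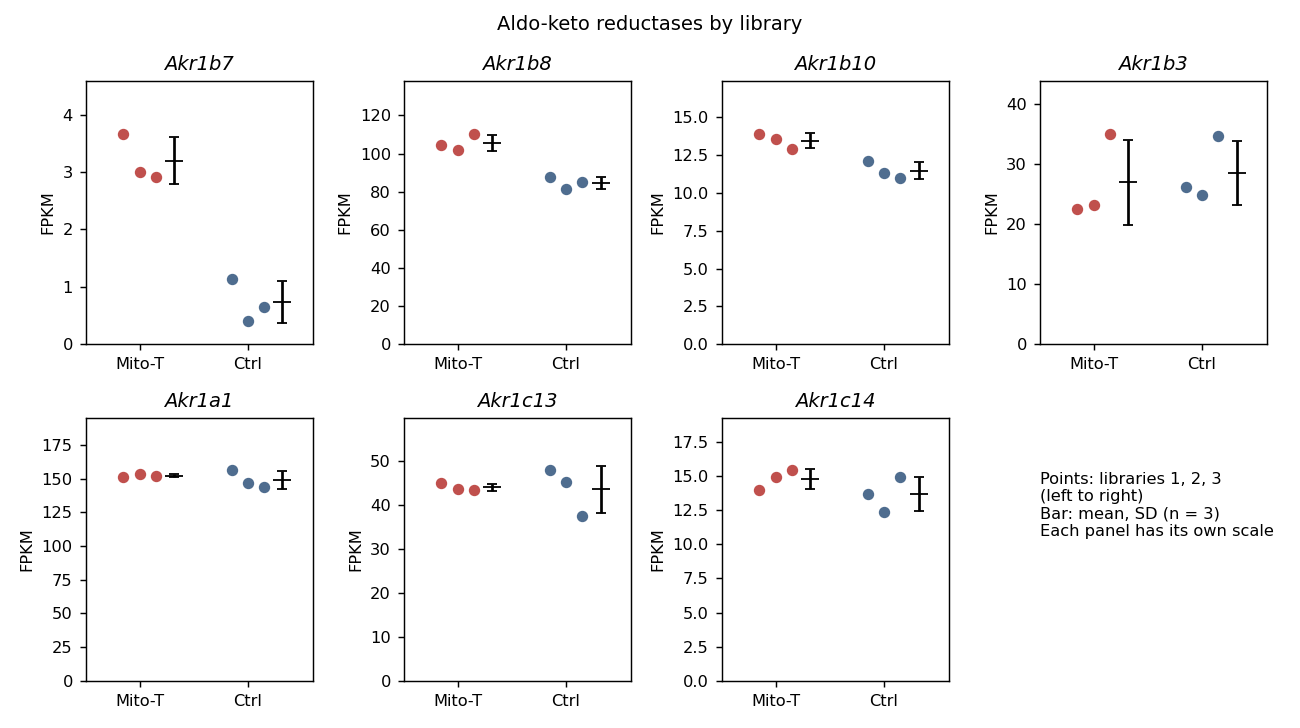
FPKM of the 7 aldo-keto reductases in each library, Mito-T left and Ctrl right, with replicates 1 to 3 from left to right and the mean and SD (n = 3) beside them; each panel has its own scale starting at 0. The groups did not overlap in Akr1b7, Akr1b8 and Akr1b10, and they overlapped in the other 4 genes.

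Akr1b8, a reductase whose mouse transcript was named for its induction by fibroblast growth factor, was the highest of the Akr1b genes. Akr1b8 (ENSMUSG00000029762, chromosome 6, 34354119 to 34368463) stood at 104, 102 and 110.5 FPKM in Mito-T replicates 1 to 3, against 87.8, 81.3 and 85.0 FPKM in Ctrl replicates 1 to 3. The groups did not overlap, and the means were 106 ± 4.38 FPKM in Mito-T libraries and 84.7 ± 3.29 FPKM in Ctrl libraries (SD, n = 3 each). The log2 change was 0.32 (SE 0.06, 95% interval 0.18 to 0.45), and it missed the threshold with a limma adjusted p of 0.0613. It passed in 2 of 16 alternative settings. These were quantile normalization, with a limma adjusted p of 0.0402, and genes of mitochondrial DNA left out, with 0.0437. Without a single library it passed in 0 of 6 fits, at limma adjusted p from 0.0733 to 0.227.

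Akr1b10, a reductase active on retinal and other aldehydes, lies between Akr1b8 and Akr1b7. Akr1b10 (ENSMUSG00000061758, chromosome 6, 34384218 to 34396950) stood at 13.9, 13.6 and 12.9 FPKM in Mito-T replicates 1 to 3, against 12.1, 11.3 and 10.96 FPKM in Ctrl replicates 1 to 3. These groups did not overlap either. The means were 13.5 ± 0.520 FPKM in Mito-T libraries and 11.5 ± 0.566 FPKM in Ctrl libraries (SD, n = 3 each), with a log2 change of 0.21 (SE 0.06, 95% interval 0.07 to 0.36, limma adjusted p = 0.175). In all, 3 of the 7 members had groups that did not overlap, each of them higher in Mito-T libraries. Of all tested genes 21.0% had groups that did not overlap, and 9.62% had them with the Mito-T libraries higher. Since the same contrast chose the members, nothing is read from their count.

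Akr1b3 (ENSMUSG00000001642, chromosome 6, 34302434 to 34317478) stands at the other end of the cluster on the minus strand, and its groups overlapped. It stood at 22.6, 23.2 and 35.1 FPKM in Mito-T replicates 1 to 3, against 26.3, 24.8 and 34.7 FPKM in Ctrl replicates 1 to 3. The third library was the highest in each group, and the spread within a group was larger than the difference between the means of 27.0 ± 7.05 FPKM in Mito-T libraries and 28.6 ± 5.34 FPKM in Ctrl libraries (SD, n = 3 each). The log2 change was −0.09 (SE 0.19, limma adjusted p = 0.879), with a 95% interval from −0.55 to 0.36 that leaves room for a change in either direction. Bpgm, which makes bisphosphoglycerate and is the nearest expressed gene beyond Akr1b7, was at 29.6 ± 1.67 FPKM in Mito-T libraries and 30.1 ± 3.29 FPKM in Ctrl libraries (SD, n = 3 each; limma adjusted p = 0.959). The other 4 genes annotated within 100 kb of the cluster, 3 of them pseudogenes and 1 antisense to Akr1b3, stayed under 0.2 FPKM in every library.

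**Figure D2:**
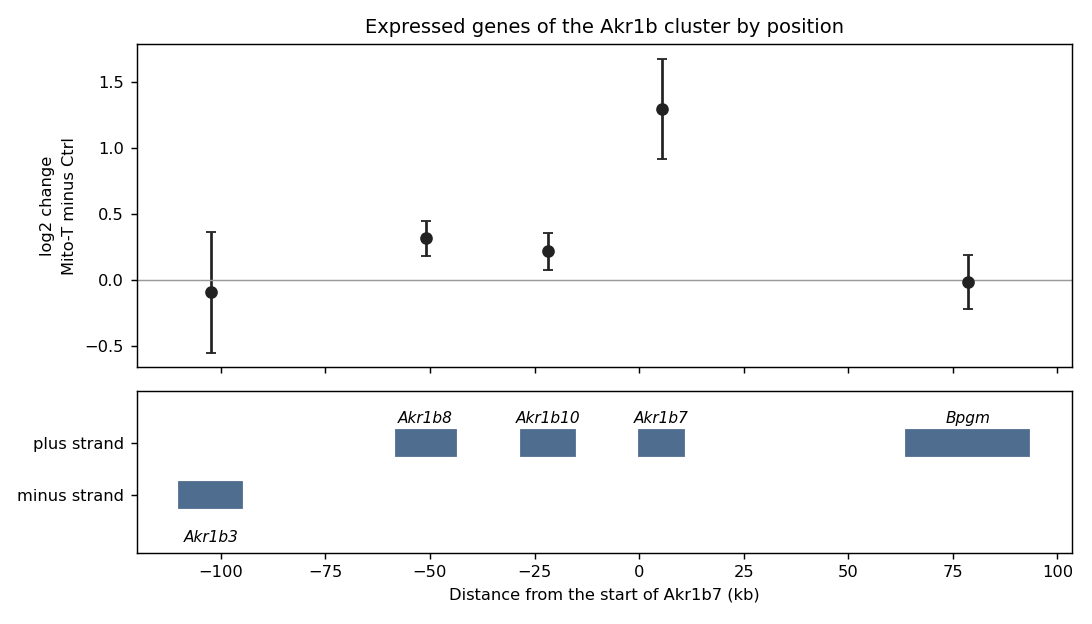
Log2 change (Mito-T minus Ctrl, with 95% interval from limma) of the 5 expressed genes of the Akr1b cluster above a map of their positions and strands, as distance in kb from the start of Akr1b7. The 3 plus-strand genes Akr1b8, Akr1b10 and Akr1b7 have values of 0.32, 0.21 and 1.29, while Akr1b3 at −0.09 and Bpgm at −0.02 have intervals that span 0.

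Sequence shared between genes bears on each of these values, since the sources used here do not give how fragments that fit several genes were counted. Of the 1251 distinct 31-base words of Akr1b7, 27.7% also occurred in another annotated gene. Akr1b10 held 7.03% of them, Akr1b8 held 3.28%, and the pseudogene Gm13857, which overlaps the end of Akr1b7 on the other strand, held 19.2%. Gm13857 was at 0.0279 FPKM or less in every library, so few fragments were given to it. With words of 75 bases the shared part of Akr1b7 fell by construction to 5.30%, all of it with Gm13857. For Akr1b8 and Akr1b10, 9.48% and 5.63% of the 31-base words were shared. These shares are of 1467 and 3554 words over all annotated transcripts. The Akr1b10 transcript with the longest coding sequence has 1371 bases, so its share may be understated beside that of Akr1b7, which has a single transcript.

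The level of Akr1b7 was set against those of its neighbours in each library, since fragments from shared stretches can be given to any of these genes. Akr1b7 came to 3.51%, 2.95% and 2.64% of the FPKM of Akr1b8 in Mito-T replicates 1 to 3, against 1.29%, 0.502% and 0.769% in Ctrl replicates 1 to 3. The ratio did not overlap between the groups. Because it carries the Akr1b7 values that chose the family, nothing is supported with it. Ratios of FPKM as given cannot show how shared fragments were divided. Relative to Akr1b10 it came to 26.4%, 22.2% and 22.7% in Mito-T libraries, against 9.39%, 3.60% and 5.96% in Ctrl libraries. Akr1b10 itself kept close to Akr1b8, at 12.8% ± 0.949 of its FPKM in Mito-T libraries and 13.5% ± 0.556 in Ctrl libraries (SD, n = 3 each).

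Akr1b7, Akr1b8 and Akr1b10 were also combined, each weighted by its exonic length over all annotated transcripts, of 1281, 1499 and 3535 bases. With these weights a fragment counts the same whichever paralog received it only if FPKM was scaled to the same lengths. The transcripts with the longest coding sequence have 1281, 1358 and 1371 bases, so a fragment given to Akr1b10 may count more. This length-weighted mean was 33.2 ± 0.818 FPKM in Mito-T libraries and 26.7 ± 1.08 FPKM in Ctrl libraries (SD, n = 3 each), with a log2 ratio of 0.32. The plain sum of FPKM was 122 ± 3.89 in Mito-T libraries and 96.9 ± 4.02 in Ctrl libraries (SD, n = 3 each). Its log2 ratio was 0.34, and it depends on the paralog as well. The difference of 25.4 FPKM between the plain sums came for 82.4% from Akr1b8, for 9.71% from Akr1b7 and for 7.86% from Akr1b10. Akr1b7 therefore had the largest fold and a small part of the added transcript. It made up 2.61% of the plain sum in Mito-T libraries and 0.755% in Ctrl libraries.

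Akr1a1 (ENSMUSG00000028692, chromosome 4, 116636510 to 116651680), the aldehyde reductase that reduces glucuronate on the mouse route to ascorbate, was the highest of the 7 genes. It stood at 152, 153 and 152 FPKM in Mito-T replicates 1 to 3, against 156, 147 and 144 FPKM in Ctrl replicates 1 to 3. The Mito-T values lay inside the range of the Ctrl values. The log2 change of 0.03 (SE 0.05, limma adjusted p = 0.828) had a 95% interval from −0.09 to 0.16, and its sign turned under quantile normalization, to −0.014.

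Akr1c13 and Akr1c14 belong to the Akr1c cluster on chromosome 13 and are hydroxysteroid dehydrogenases of the mouse. Akr1c13 (ENSMUSG00000021213, chromosome 13, 4191150 to 4205596) stood at 44.9, 43.6 and 43.4 FPKM in Mito-T replicates 1 to 3, against 47.8, 45.1 and 37.5 FPKM in Ctrl replicates 1 to 3. Its groups overlapped, with means of 44.0 ± 0.824 FPKM in Mito-T libraries and 43.5 ± 5.32 FPKM in Ctrl libraries (SD, n = 3 each) and a log2 change of 0.02 (SE 0.09, 95% interval −0.19 to 0.24, limma adjusted p = 0.943). Without Ctrl replicate 3, the lowest library, the change was −0.077. Akr1c13 may not be well separated from Akr1c12, which was not tested. It shared with Akr1c12 33.7% of its 31-base words, a coding identity of 96.2% and a coding run of 228 bases without a difference. Akr1c12 came to 10.45% ± 0.542 of the FPKM of Akr1c13 in Mito-T libraries and 10.8% ± 1.40 in Ctrl libraries (SD, n = 3 each).

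Akr1c14 (ENSMUSG00000033715, chromosome 13, 4049011 to 4090688), an enzyme of androgen and progestin inactivation, stood at 14.0, 14.9 and 15.4 FPKM in Mito-T replicates 1 to 3, against 13.7, 12.4 and 14.9 FPKM in Ctrl replicates 1 to 3. The groups overlapped, with means of 14.8 ± 0.738 FPKM in Mito-T libraries and 13.7 ± 1.28 FPKM in Ctrl libraries (SD, n = 3 each). The log2 change was 0.11 (SE 0.08, 95% interval −0.08 to 0.29, limma adjusted p = 0.616). Of its 31-base words 7.23% were shared, mostly with the pseudogene Gm18857, which stayed under 0.2 FPKM.

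Over all 6 libraries the order of levels was Akr1a1 at 151 ± 4.56 FPKM, Akr1b8 at 95.2 ± 11.97 FPKM, Akr1c13 at 43.7 ± 3.42 FPKM, Akr1b3 at 27.8 ± 5.66 FPKM, Akr1c14 at 14.2 ± 1.10 FPKM, Akr1b10 at 12.5 ± 1.20 FPKM and Akr1b7 at 1.96 ± 1.39 FPKM (SD, n = 6). Akr1c14 and Akr1b10 were the 1 pair of neighbours in this order whose ranges overlapped. The members' median log2 change was 0.11, beside −0.01 for all genes tested.

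The mouse has further aldo-keto reductases, and of the 20 genes of the superfamily looked up, 12 were tested. None of the 5 tested beyond the 7 was called by limma, and 1 had an unadjusted p under 0.05. Akr7a5, which reduces succinic semialdehyde and aflatoxin aldehydes, had that p, with 21.6 ± 0.379 FPKM in Mito-T libraries and 24.3 ± 1.39 FPKM in Ctrl libraries (SD, n = 3 each; limma adjusted p = 0.294). Akr1c18, which inactivates progesterone, was at 5.73 ± 0.881 FPKM in Mito-T libraries and 5.49 ± 2.41 FPKM in Ctrl libraries (SD, n = 3 each; limma adjusted p = 0.895), and its Ctrl replicates ranged from 2.995 to 7.81 FPKM. Akr1e1, a reductase of anhydrofructose, was at 6.63 ± 0.425 FPKM in Mito-T libraries and 6.16 ± 0.946 FPKM in Ctrl libraries, and Kcnab2, a potassium channel subunit with an aldo-keto reductase fold, at 13.1 ± 1.75 FPKM in Mito-T libraries and 10.5 ± 1.98 FPKM in Ctrl libraries (SD, n = 3 each). Akr1c6, Akr1c19 and Akr1d1 were listed at 0 in every library. Akr1c20, Akr1c21 and Kcnab1 stayed under 0.2 FPKM, and Akr1cl and Kcnab3 reached 0.418 and 1.05 FPKM at most.

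**Figure D3:**
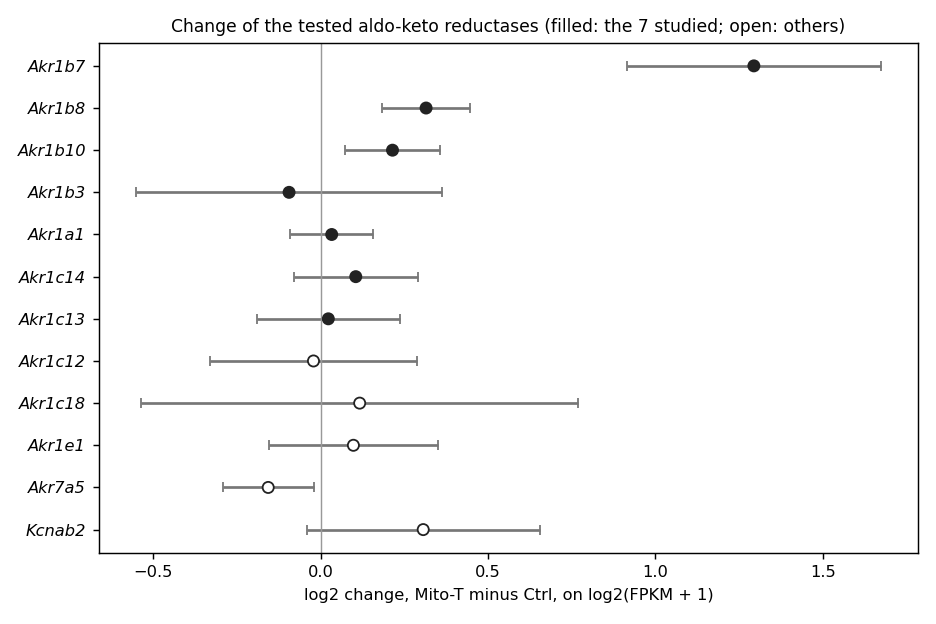
Log2 change (Mito-T minus Ctrl, on log2(FPKM + 1), with 95% interval from limma) of the 12 tested aldo-keto reductases, filled for the 7 described in full and open for the other 5. Akr1b7 at 1.29 lies apart from the rest, which lie between −0.16 and 0.32.

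Akr1b3 is also a gene of the osmotic stress response, since sorbitol is an osmolyte and its promoter is a known target of the factor NFAT5. Its high value in the third library of each group was seen as well in the osmolyte genes of the polyol list, a pattern noticed after the values were seen. Slc5a3, the myo-inositol carrier, stood at 9.14, 8.49 and 16.2 FPKM in Mito-T replicates 1 to 3, against 15.5, 17.4 and 25.4 FPKM in Ctrl replicates 1 to 3. Limma gave Slc5a3 an adjusted p of 0.272, and 0.0470 with the replicate number as a block. Slc6a6, the taurine carrier, stood at 56.6, 57.2 and 68.0 FPKM in Mito-T libraries, against 45.7, 51.5 and 64.1 FPKM in Ctrl libraries. Slc6a12, the betaine carrier, had 0.971 FPKM in Mito-T replicate 3 and 1.10 FPKM in Ctrl replicate 3, its highest values in each group. Nfat5 itself was also highest in these libraries, at 12.5 FPKM in Mito-T replicate 3 and 13.3 FPKM in Ctrl replicate 3, with only a narrow lead in the Mito-T group. Replicate 3 was highest in both groups in 18.8% of all tested genes and in 2 of the 7 members, Akr1b3 and Akr1c14. Akr1b3 stood 1.53-fold above the mean of the other replicates in the Mito-T group and 1.36-fold above it in the Ctrl group.

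**Figure D4:**
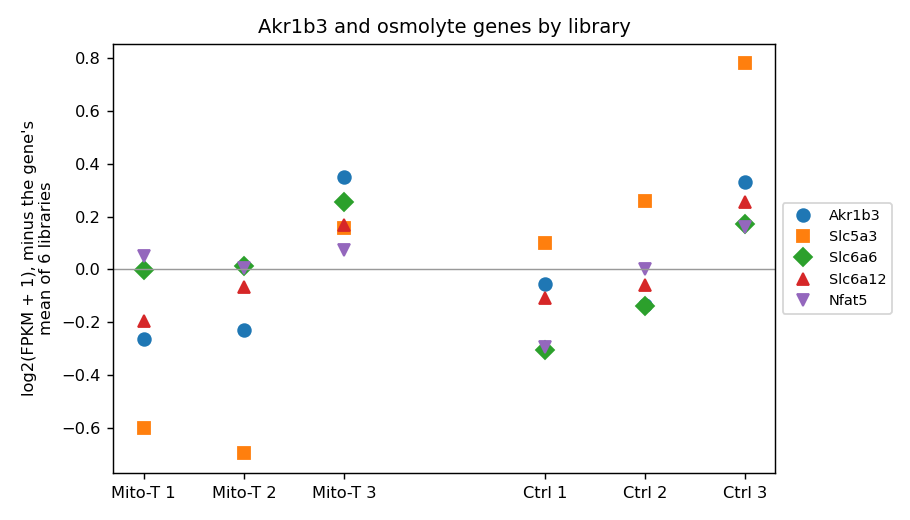
Log2(FPKM + 1) of Akr1b3, Slc5a3, Slc6a6, Slc6a12 and Nfat5 in each library, minus the gene's mean over 6 libraries, with Mito-T libraries left and Ctrl libraries right. In both groups all 5 genes are highest in replicate 3, where Akr1b3 has 35.1 FPKM in Mito-T and 34.7 FPKM in Ctrl cells.

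Of the 5 genes elsewhere in the genome that shared at least 1.00% of the 31-base words of Akr1b3, 3 were detected, and each was highest in the third library of both groups. The processed pseudogenes Gm6644, with 9.76% of the words, and Gm5400, with 1.00%, were listed at 0 in every library. Gm12138, a processed pseudogene that holds 8.01% of the 31-base words of Akr1b3, stood at 4.47, 4.26 and 6.21 FPKM in Mito-T replicates 1 to 3, against 4.85, 3.78 and 5.97 FPKM in Ctrl replicates 1 to 3. Gm6736, with 8.99% of the words, and Gm38056, with 14.2%, were also highest in replicate 3 of both groups, at 5.87 and 6.60 FPKM in Mito-T cells and at 5.59 and 6.30 FPKM in Ctrl cells. These shares are of the 8486 words of all annotated transcripts of Akr1b3, and its transcript with the longest coding sequence has only 1387 bases. Gm38056 held 1202 of the words, so the shares may understate how much of that transcript is shared. The level of Akr1b3 is uncertain by the fragments that these copies could share with it.

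Genes that act beside the aldo-keto reductases were read from lists chosen with earlier results of these data known. In the polyol and fructose list limma called 0 of 8 tested genes, and the median log2 change was 0.10. An unadjusted p under 0.05 was found in 3, beside 13.9% of all tested genes. Of these 3, Khk and Aldoc were higher in Mito-T libraries, with log2 changes of 0.25 and 0.32, and Slc5a3 was lower, at −0.76. Khk, the ketohexokinase that phosphorylates fructose, had the smallest p there, at 15.8 ± 1.79 FPKM in Mito-T libraries and 13.0 ± 0.322 FPKM in Ctrl libraries (SD, n = 3 each; limma adjusted p = 0.239). Sord, which oxidises the sorbitol that aldose reductase makes, was at 32.5 ± 1.16 FPKM in Mito-T libraries and 31.7 ± 0.345 FPKM in Ctrl libraries (SD, n = 3 each; limma adjusted p = 0.793).

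Other enzymes that clear carbonyls showed 1 call among 30 tested, beside 1.12% of all tested genes. Aldh3b1, an aldehyde dehydrogenase of membrane lipid aldehydes, rose to 52.4 ± 0.646 FPKM in Mito-T libraries, against 41.5 ± 0.848 FPKM in Ctrl libraries (SD, n = 3 each), with 0.33 as its log2 change (SE 0.04) and a limma adjusted p of 0.0302. Its call held without Ctrl replicate 1 and was lost without any other single library, with adjusted p between 0.0534 and 0.160. It held in 8 of 10 other settings. It was lost with no filter on low values (limma adjusted p = 0.0972) and with the replicate number as a block (0.0622). The list's median log2 change was −0.0017, and 5 of its genes had an unadjusted p under 0.05, beside 13.9% of all tested genes. In the prostaglandin and steroid list limma called 0 of 18 tested genes, with a median log2 change of −0.06. An unadjusted p under 0.05 was found in 7, beside 13.9% of all tested genes. Of these 7, 3 were higher in Mito-T libraries, beside 6.58% of all tested genes with such a p and higher. Hsd11b2, which inactivates corticosterone, had the smallest p, at 1.26 ± 0.0455 FPKM in Mito-T libraries and 2.15 ± 0.387 FPKM in Ctrl libraries (SD, n = 3 each; limma adjusted p = 0.0950).

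NRF2 is the factor that induces several aldo-keto reductases and the enzymes that supply their NADPH. Among 20 tested NRF2 regulators, targets and NADPH enzymes, 1 was called, beside 1.12% of all tested genes, and the median log2 change was −0.09. In 10 of the 20 the groups did not overlap, beside 21.0% of all tested genes. Limma gave an unadjusted p under 0.05 to 8, beside 13.9% of all tested genes. Of these 8, 2 were higher in Mito-T libraries. These 2, named after their values were seen, were the pentose phosphate enzymes Tkt and Pgls. They had log2 changes of 0.28 and 0.16 and limma adjusted p of 0.0671 and 0.354. The lower ones were Gclc, Me1, Maff, Hmox1, Txnrd1 and Gsr. Their log2 changes were −0.30, −0.34, −0.29, −0.33, −0.17 and −0.16, and Me1 had a limma adjusted p of 0.0702. Tkt was called in 2 of 10 other settings and in 0 of the 6 fits without a single library. Gclc, which starts glutathione synthesis, fell to 20.6 ± 0.256 FPKM in Mito-T libraries, against 25.5 ± 0.763 FPKM in Ctrl libraries (SD, n = 3 each; limma adjusted p = 0.0461). This call was lost without any single one of the 6 libraries, with limma adjusted p between 0.0597 and 0.210. It held in 3 of 10 other settings, where limma's adjusted p ranged from 0.0399 to 0.135. On the ascorbate route, to which Akr1a1 belongs in the mouse, limma called 0 of 4 tested genes and 0 had an unadjusted p under 0.05. Ugt1a6a had the smallest p there, at 2.96 ± 0.645 FPKM in Mito-T libraries and 1.93 ± 0.942 FPKM in Ctrl libraries (SD, n = 3 each; limma adjusted p = 0.459). Gulo, the last enzyme of that route, reached 0.101 FPKM at most.

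The genes whose course over the 6 libraries was most like that of Akr1b7 were sought by the root-mean-square distance between log2(FPKM + 1) values, each gene centred on its own mean. Sncg, which encodes gamma-synuclein, was nearest with a distance of 0.16. Gpx3, Bmp5, Gm7324 and Ncald followed, with distances from 0.23 to 0.27. Among the other members Akr1b8 was nearest, with a distance of 0.52 at rank 243, and Akr1b3 was farthest, with 0.77 at rank 11238. All these profiles come from the same 6 libraries, so the ranks describe likeness only.

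**Figure D5:**
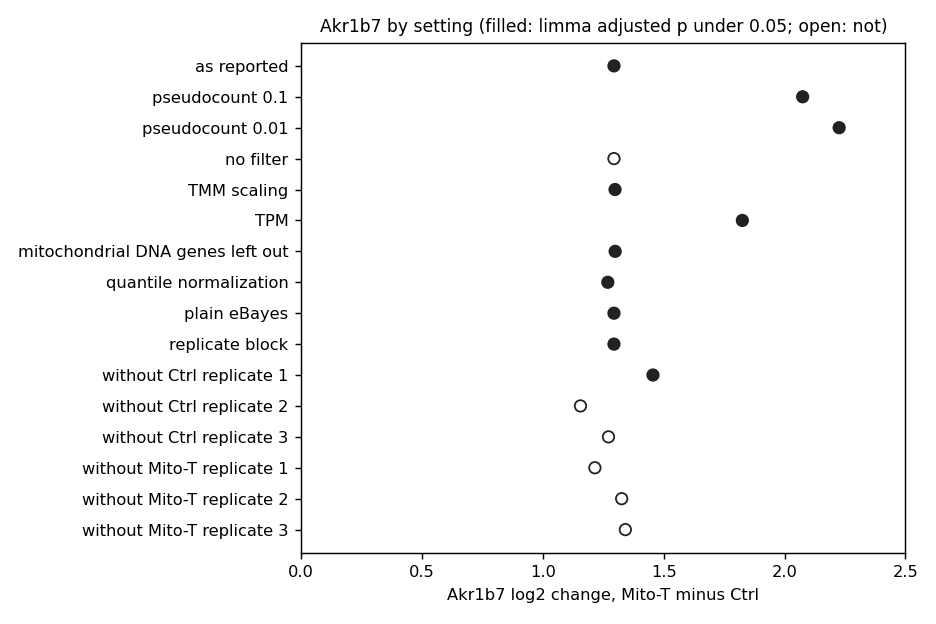
Log2 change of Akr1b7 (Mito-T minus Ctrl) as reported and under 15 other settings, filled where limma's adjusted p was under 0.05. All values lie between 1.16 and 2.23, and the call was lost with no filter and without each library other than Ctrl replicate 1.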

How the data were processed

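Each of the 6 libraries has its own deposited column, with 55335 gene identifiers, of which 55154 matched GENCODE M21 on GRCm38. The deposited values were read as FPKM. No header names the unit, and the reading rests on values that are not whole, on unequal column sums too low for TPM, and on steps of value times length in genes with 1 transcript. The tools StringTie 1.3.1c, STAR 2.5.3a and FastQC 0.11.5 and the build GRCm38 (mm10) are named per the submitters' processing notes, and settings and the use of strand are not given in the sources used here. Only 26.8% to 29.4% of low values lay within 0.02 of whole fragments, so no count model was used.

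Limma 3.58.1 in R 4.3.3 was fitted to all tested genes on log2(FPKM + 1), modelling group alone, with robust, trended empirical Bayes variances; p-values are two-sided. The code was tested on simulated data. The members, lists and alternatives were chosen with earlier results of these data known. Genes named were the 7 members, the rest of the superfamily, each list's called genes or its smallest p, the neighbours of the Akr1b cluster, and the 5 profiles nearest to Akr1b7. The protein comparison that was planned was replaced by coding sequence identity from GENCODE transcripts, aligned globally with Biopython 1.88. Depth limits the precision of low genes, and the FPKM files give no counting error of their own.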

Additional observations from a re-analysis of the deposited data

How the results depend on the processing

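Limma called 141 genes as reported, 13 with no filter on low values, 56 with the replicate number as a block, and 14 to 88 without single libraries. Of the 7 members, 1 was called as reported, 0 with no filter or with a mean of at least 5 FPKM, where Akr1b7 itself is not tested, 2 under quantile normalization or with genes of mitochondrial DNA left out, and 0 to 1 without single libraries. Among the genes of all lists, 4 were called as reported, 1 with no filter, 2 with the replicate block and 1 to 2 without single libraries. The replicate numbers do not pair the libraries by the labels, and deviations of same-numbered libraries correlated at 0.10, 0.046 and 0.30 over tested genes; Akr1b7 was called with the block, and no other member was. The sign of Akr1a1 turned under quantile normalization (−0.014), and without single libraries Akr1b3 ranged from −0.29 to 0.049 and Akr1c13 from −0.077 to 0.094; no member's call was at stake in these, and the cause was not tested. Akr1b8 and Akr1b10 kept their direction in all 16 alternatives, at 0.28 to 0.34 and 0.19 to 0.25. Akr1b7 kept its direction in the 15 alternatives that tested it, with its call in 9, and pseudocounts of 0.1 and 0.01 gave 2.07 and 2.23. Over all annotated transcripts, shared 75-base words came to 14.3% in Akr1c13 and 12.1% in Akr1b3.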

Other observations

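Aldh1l1, a folate enzyme of the aldehyde dehydrogenase family and a common astrocyte marker, did not pass the filter on low values and is named here because of its values. It stood at 0.972, 1.15 and 1.06 FPKM in Mito-T replicates 1 to 3, against 0.416, 0.455 and 0.302 FPKM in Ctrl replicates 1 to 3. Its groups did not overlap, as was the case in 21.0% of all tested genes. Of the 2 alternatives that tested it, limma called it higher on the TPM scale (adjusted p = 0.0361) and did not call it with no filter (log2 change 0.57, adjusted p = 0.105). Of the 10 astrocyte markers 3 were tested and 0 were called by limma, with 1, Aldoc, at an unadjusted p under 0.05. The median log2 change of these 3 was −0.04, with Gja1 at −0.25 and S100b at −0.04. Among the markers under the filter, Slc1a3 and Fgfr3 had lower means in Mito-T libraries, and Gfap and Slc1a2 had higher ones. Aldoc, an aldolase, was at 17.9 ± 2.27 FPKM in Mito-T libraries and 14.1 ± 1.61 FPKM in Ctrl libraries (SD, n = 3 each; limma adjusted p = 0.268).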
